A study of Mus musculus with 4 samples.

Results

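Zfp is the mouse symbol prefix for proteins with zinc fingers, short folds held by a zinc ion, and the genes described here are those of this naming series that were expressed in polysome RNA, the messenger RNA bound by ribosomes, from mouse cells that the labels call ADSC. They were chosen by their level: protein-coding genes with the symbol Zfp followed by a number and a mean FPKM (fragments per kilobase of gene, scaled to library size) of at least 1 over 4 libraries. This gave 156 of 363 protein-coding Zfp genes, among 18200 genes in the table, and 207 protein-coding Zfp genes were below that mean. The 4 libraries are 2 labelled scrambled, from cells given a scrambled control, and 2 labelled knockdown, from cells treated by a short hairpin (sh-Ifit1) for IFIT1 knockdown, with the genotype given as WT in all 4. Replicate 1 of each group is labelled batch 1 and replicate 2 batch 2. The series title places the study in IFIT1 knockdown, translation and myogenic differentiation of mesenchymal stem cells for heart infarction therapy. Nothing states whether the replicates were separate cultures, so the p-values speak for the spread among these 4 libraries alone, and that spread may be technical. Total RNA was not analysed here, so a change in the amount of a messenger RNA and a change in its loading with ribosomes cannot be told apart, nor can fewer cells of a type and less RNA per cell.

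Most Zfp proteins carry arrays of C2H2 fingers that read DNA bases, and many of these also hold a KRAB domain, which recruits the corepressor Trim28 and silencing enzymes to retroelements and imprinted genes. These genes arose by repeated local duplication and lie in chromosomal clusters. The prefix is a name and not a function: Zfp36 and its relatives have CCCH fingers that bind AU-rich messenger RNA and start its decay, and other members act on ribosomes, splicing or protein modification. In the authors' deposited annotation, 130 members carried the transcription factor family zf-C2H2, 2 zf-CCCH, 2 ZBTB and 9 the class Others, and 13 had no family.

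Fragments recovered for 15872 of the 18200 genes came to 24448952 to 29825482 per library. Other genes are left out and common divisors are not known, so these are not full library sizes. The sums of FPKM ran from 598188 to 701936. Ifit1 (Entrez 15957), the gene the knockdown is named for, had 1.93 and 1.91 FPKM in scrambled 1 and 2 and 13.9 and 14.8 in knockdown 1 and 2, a log2 change of 2.39 (SE 0.04, limma adjusted p = 1.6e-04). This goes against the labels, so scrambled and knockdown stand in what follows for libraries with that label, and every direction is knockdown relative to scrambled. Of 10 stromal markers 6 were tested and all 6 rose, where 27.4% of all tested genes did. The summed level of all 10 was 41.1 to 41.7 FPKM in the scrambled group and 96.8 to 97.7 in the knockdown group. Most of that rise was in Thy1, with group means of 3.7 and 30.6 FPKM, and Ly6a, with 22.4 and 43.7. Nt5e, Pdgfra, Pdgfrb and Alcam were under the mean of 1 FPKM. Of 14 markers of blood, endothelial, epithelial and fat cells, 6 were in the table, with a summed level of 7.33 to 7.81 FPKM in all 4 libraries. Of these, Cd14, which rose, and Fabp4, which fell, passed the filter. The part of these markers in the Zfp results was not tested.

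The mean level of the members was 1.01 to 110 FPKM with a median of 3.07, against a median of 8.68 over all 8750 genes tested. Of the members 49 were under 2 FPKM and 26 at 10 or above. Together they made up 0.19% and 0.189% of the FPKM sum in the scrambled libraries and 0.158% and 0.159% in the knockdown libraries. Their own sums were 1136 and 1165 FPKM in scrambled 1 and 2 and 1106 and 1083 in knockdown 1 and 2. The sums over all genes were 598188 and 616504 in the scrambled and 701936 and 680137 in the knockdown libraries. Zfp207 was the most abundant, at 138 and 134 FPKM in scrambled 1 and 2 and 84.6 and 85.3 in knockdown 1 and 2. Zfp740 followed at 58.7 and 58.2 against 43.5 and 44.2, then Zfp706, Zfp593 and Zfp330 at means over the 4 libraries of 48.0, 44.1 and 39.1 FPKM.

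Zfp genes were higher and lower in equal number. Of 156 members, 58 rose, 58 fell and 40 did not pass (limma on log2(FPKM + 1), Benjamini-Hochberg adjusted p under 0.05 over all tested genes). Of all tested genes 27.4% rose and 41.2% fell, against 37.2% and 37.2% of the members. The median log2 change was -0.02 for the members and -0.02 for all tested genes, but with 1 library left out it was -0.17 to -0.1 for all tested genes and -0.02 to 0.00 for the members. Changes ran from -1.44 in Zfp36l2 to 1.25 in Zfp575. By a fold of 2 or more between group means 11 members rose and 10 fell, a count not given here for all tested genes. Some of both passed the filter at a mean of 1 FPKM only through the group where they were higher. Among them were Zfp931, Zfp932 and Zfp958, which rose, and Zfp451, Zfp46 and Zfp592, which fell, directions that the rule itself favours. The equal split depends on how the libraries are scaled. With each library centred on its median, 66 members rose and 45 fell, and the median change over all tested genes became 0.15. With a common FPKM sum 43 rose and 66 fell, and that median became -0.2. Among 61 other tested genes of the deposited zf-C2H2 family, 13 rose and 31 fell, with a median log2 change of -0.22.

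**Figure D1:**
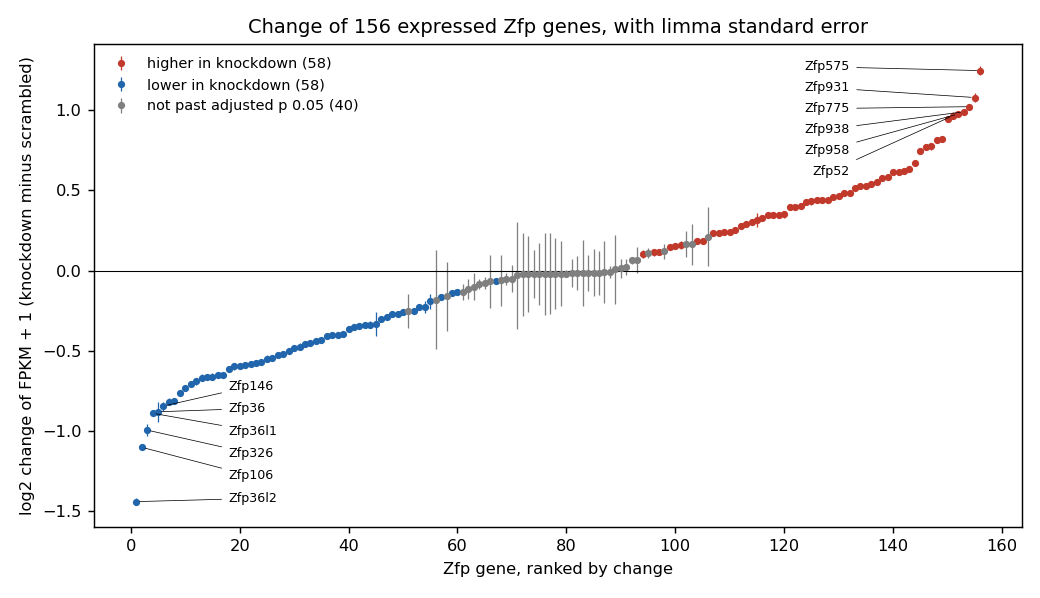
Each point is 1 of the 156 Zfp genes, ranked on the x axis by its log2 change of FPKM + 1 (y axis, knockdown minus scrambled), with bars for the limma standard error and colours for the call. The 58 higher and 58 lower genes lie at both ends with short bars, from -1.44 to 1.25, and the 40 that did not pass sit near 0, many with long bars.

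The 4 libraries paired within groups in most members and across groups in others. In most members the libraries of a group were close to each other. Over the 156 members, the median size on the log2 scale was 0.35 for the difference between groups and 0.017 for the crossed difference. In 30 members (19.2%, against 27.2% of all tested genes) the mean of scrambled 2 and knockdown 1 differed by at least 0.1 from that of scrambled 1 and knockdown 2, called crossed here. In 22 of these members, and in 1693 of the 2381 crossed genes among all tested, the groups differed by less than 0.1. In the other 8 members the groups differed by at least 0.1, as in Zfp365, where knockdown 2 differed from scrambled 1 by -32.4%. Zfp706, whose product is a small protein, showed it most, at 38.3 and 59.0 FPKM in scrambled 1 and 2 and 56.4 and 38.3 in knockdown 1 and 2. Its groups overlapped, and scrambled 1 and knockdown 2 differed by 0.146% of the scrambled value. Zfp385a, an RNA-binding protein and p53 cofactor, had 14.5 and 20.3 against 19.8 and 14.3 FPKM, and Zfp51 had 3.09 and 2.14 against 2.09 and 3.05. In 14 members scrambled 2 and knockdown 1 were the higher pair, and in 16 scrambled 1 and knockdown 2. Over all tested genes these were 1488 and 893.

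Among all tested genes 2381 were crossed and 2741 did not pass, with 2267 in both. Of the 30 crossed members 29 did not pass, so 29 of the 40 members that did not pass were crossed. The exception, Zfp365, fell from 1.36 and 1.63 to 1.05 and 0.922 FPKM (adjusted p = 0.03). In Zfp143, which binds many gene promoters, the values were 4.89 and 2.97 FPKM in the scrambled group and 2.58 and 4.09 in the knockdown group, a log2 change of -0.18 (SE 0.31, adjusted p = 0.74) beside a crossed difference of -0.54. No member differed by 0.1 or more between batches 1 and 2, and 26 of all 8750 tested genes did. Across the 156 members, the difference between replicates of the scrambled group and that of the knockdown group had a Pearson's r of -0.98, with the genes sharing the same 4 libraries. A miss of the threshold therefore does not show that a crossed member was equal in both groups, and the cause of the crossing was not tested. The genes of this and the preceding paragraph that the rule for naming genes does not cover, Zfp51 and Zfp365, were chosen after their values were seen.

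**Figure D2:**
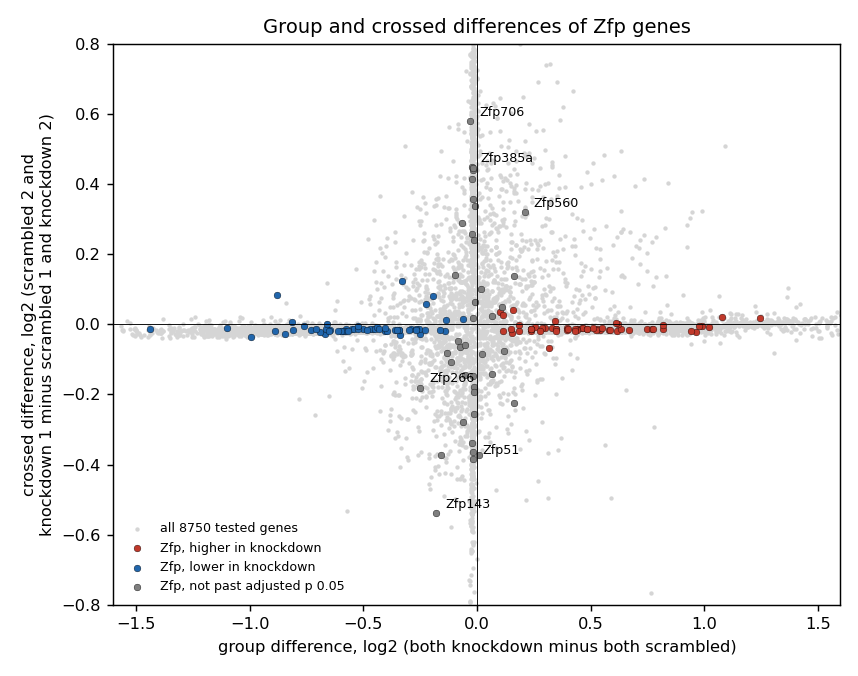
Each point is a gene, with its difference between groups on the x axis and its crossed difference (scrambled 2 and knockdown 1 against scrambled 1 and knockdown 2) on the y axis, both on log2 of FPKM + 1, coloured points being Zfp genes and grey points all 8750 tested genes. The points lie along the axes: the members that rose or fell are near 0 on the y axis, and crossed members such as Zfp706 and Zfp385a are near 0 on the x axis. Tested genes beyond the axis limits are not drawn.

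All 3 expressed members of the CCCH family that destroys AU-rich messenger RNA fell, where 41.2% of all tested genes did, and Zfp36l2 had the largest fall among the Zfp genes. Zfp36l2 (Entrez 12193) was at 27.5 and 27.7 FPKM in scrambled 1 and 2 and at 9.42 and 9.66 in knockdown 1 and 2. It averaged 27.6 ± 0.0947 (SD, n = 2) in the scrambled and 9.54 ± 0.174 (SD, n = 2) in the knockdown group, a fall of 2.89-fold (log2 -1.44, SE 0.02, limma adjusted p = 1.6e-04), from 3135 and 3826 fragments to 1314 and 1237. Both libraries of a group were close and the groups did not overlap. Zfp36l1 (Entrez 12192) went from 11 and 10.9 FPKM to 5.42 and 5.49, a fall of 2.01-fold. Zfp36 (Entrez 22695), known as tristetraprolin, went from 12 and 13.4 FPKM to 6.49 and 6.36, a fall of 1.97-fold (log2 -0.88, SE 0.06, adjusted p = 0.0011), with a wider gap between its scrambled libraries than its relatives had. The summed level of the 3 genes was 50.6 and 51.9 FPKM in the scrambled group and 21.3 and 21.5 in the knockdown group. All 3 stayed lower, past the threshold, under each alternative run. RefSeq's promoter table (GRCm38.p6) holds 2 of the 3. Their 250 bases before the start are given 5′ to 3′ to let these genes be set beside members that rose, with capitals for matches on either strand to known promoter motifs. These were the CCAAT box, with the letters of its name, and the box rich in guanine and cytosine known as the GC box, searched as GGGCGG. The others shown were the box bound by the TATA-binding protein, searched as TATAAA, and the site of ETS factors, searched as GGAAGT. The cAMP response element, searched as TGACGTCA, had no match in the promoters printed here.
Zfp36, chr7:28379229-28379478, minus strand: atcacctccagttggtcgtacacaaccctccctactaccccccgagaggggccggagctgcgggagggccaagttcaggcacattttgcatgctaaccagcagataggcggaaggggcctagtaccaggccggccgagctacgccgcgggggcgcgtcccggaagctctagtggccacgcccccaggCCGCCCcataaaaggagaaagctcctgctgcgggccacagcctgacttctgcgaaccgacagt
Zfp36l1, chr12:80113014-80113263, minus strand: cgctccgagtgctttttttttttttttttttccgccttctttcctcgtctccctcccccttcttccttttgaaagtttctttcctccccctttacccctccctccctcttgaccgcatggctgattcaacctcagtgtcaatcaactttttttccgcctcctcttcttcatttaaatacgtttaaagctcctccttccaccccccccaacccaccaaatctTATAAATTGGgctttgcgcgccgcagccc
Zfp36l1 holds a TATA box that runs into a CCAAT box on the other strand, and Zfp36 a single GC box.

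Genes of the machinery that Zfp36 proteins recruit were also counted. Of 23 tested genes of 25 listed for deadenylation, decapping and Zfp36 control, 13 (56.5%, against 41.2% of all tested genes) fell, 1 rose and 9 did not pass, with a median log2 change of -0.44. Their median transcript length was 4866 bases, and of all tested genes above 4220 bases 63.4% fell. With the length trend described further on taken out, 4 rose and 13 fell, with a median of -0.17. Cnot1, the scaffold of the CCR4-NOT deadenylase, fell from 8.46 and 8.28 to 3.41 and 3.46 FPKM. Its subunit Cnot3 fell 1.90-fold, the decapping factor Dcp1a 2.33-fold and the 14-3-3 protein Ywhab 1.91-fold. Messenger RNAs known as targets of these proteins were listed for 16 genes and tested in 11, of which 4 rose (36.4%, against 27.4% of all tested genes) and 3 fell (27.3%, against 41.2%). Their median log2 change of -0.01 was 0.17 and 0.18 without knockdown 2 and scrambled 2, and -0.21 and -0.22 without knockdown 1 and scrambled 1. The chemokine Ccl2 rose from 7.67 and 7.36 to 17.6 and 16.9 FPKM and the cytokine Lif 1.75-fold, while the phosphatase Dusp1 fell 2.38-fold and Myc 2.03-fold. Il6 and Csf2 were under the filter.

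Of 3 members that act on the ribosome, 1 fell, 1 rose and 1 did not pass, where 41.2% of all tested genes fell and 27.4% rose. Zfp598 (Entrez 213753), a ubiquitin ligase that marks collided ribosomes, fell from 33.9 and 33.7 FPKM to 21.7 and 22.2, with means of 33.8 ± 0.148 (SD, n = 2) and 22.0 ± 0.347 (SD, n = 2) and a log2 change of -0.60 (SE 0.02, limma adjusted p = 2.1e-04). Zfp593 (Entrez 68040), a nucleolar protein of large subunit assembly, rose from 32.6 and 32.1 FPKM to 55.7 and 56.0, 1.73-fold (log2 0.77, SE 0.02). Zfp622 (Entrez 52521), which acts on the large subunit in the cytoplasm, did not pass at 39.8 and 37.8 FPKM against 34.1 and 36.4 (log2 -0.13, adjusted p = 0.1). Its groups did not overlap, and with a common FPKM sum it passed as lower (log2 -0.31, adjusted p = 0.022). Among 18 tested genes of ribosome collision control, 4 rose (22.2%), 6 fell (33.3%) and 8 did not pass, with a median of -0.02, against 27.4% and 41.2% of all tested genes. After median-centring 7 rose and 6 fell, and the median was -0.18 without knockdown 2 and -0.16 without scrambled 2. The kinase Map3k20, which senses collided ribosomes, fell from 3.79 and 3.94 to 1.13 and 1.16 FPKM. Vcp, which extracts ubiquitin-marked proteins, fell 2.16-fold and the rescue factor Hbs1l 2.31-fold, while the ubiquitin protease Usp21 rose from 10.6 and 10.3 to 19.5 and 19.1 FPKM. The promoter of Zfp598, shown for comparison with those above, has GC boxes and ETS sites close to the start.
Zfp598, chr17:24669437-24669686, plus strand: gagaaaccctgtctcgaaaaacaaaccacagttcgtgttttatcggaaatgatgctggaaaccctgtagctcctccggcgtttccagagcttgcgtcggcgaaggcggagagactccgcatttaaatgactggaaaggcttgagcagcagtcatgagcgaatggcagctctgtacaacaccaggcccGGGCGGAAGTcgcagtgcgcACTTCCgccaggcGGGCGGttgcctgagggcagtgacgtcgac

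Of 7 RNA-binding and splicing members, 5 fell (71.4%, against 41.2% of all tested genes), 1 rose and 1, the crossed Zfp385a, did not pass. Zfp106, an RNA-binding protein needed by motor neurons and muscle, fell from 11.8 and 11.9 FPKM to 4.93 and 5.06, 2.37-fold. Zfp326, a subunit of the DBIRD complex that links transcription with splicing, fell from 5.48 and 5.12 to 2.17 and 2.15 FPKM, 2.45-fold. The groups were far apart in both genes. Zfp207, which loads the checkpoint protein Bub3 on chromosomes and is also found with splicing factors, fell 1.6-fold, the double-stranded RNA binder Zfp346 1.62-fold and Zfp830, a splicing-associated protein, 1.37-fold. Zfp638, a nucleic acid binder that is also a cofactor of fat cell differentiation, was the one that rose, 1.67-fold, with 2.8 and 2.78 FPKM in the scrambled and 4.62 and 4.71 in the knockdown libraries.

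Both further ligases fell, where 41.2% of all tested genes did. Their longest transcripts had 5531 and 11876 bases, and of all tested genes above 4220 bases 63.4% fell. Zfp91, a ubiquitin ligase, went from 12.8 and 12.7 FPKM to 7.66 and 7.82, and Zfp451, a SUMO ligase, from 1.6 and 1.56 to 0.766 and 0.771. Zfp451 passed the filter on low values only through the scrambled libraries. With the length trend taken out, Zfp451 did not pass (log2 -0.05, adjusted p = 0.063). Of 9 listed corepressor scaffolds 5 were members, of which 4 fell (80.0%, against 41.2% of all tested genes). The fifth, Zfp644, a partner of the histone methylase G9a, did not pass. Their median transcript length was 5208 bases, and with the length trend taken out 1 rose and 3 fell. Zfp644 was crossed, at 1.85 and 1.53 FPKM against 1.49 and 1.84, and passed as higher only with the trend taken out (log2 0.40, adjusted p = 0.042). The related corepressors Zfp503 and Zfp703 fell from 7 and 6.93 to 3.77 and 3.84 FPKM and from 8.19 and 8.23 to 4.58 and 4.71. Zfp592 and Zfp687, which work with the chromatin reader Zmynd8, fell 2.86-fold and 1.33-fold, and the fall of Zfp687 was lost when that trend was taken out (log2 0.01, adjusted p = 0.72). Zfp592 passed the filter on low values only through the scrambled libraries.

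**Figure D3:**
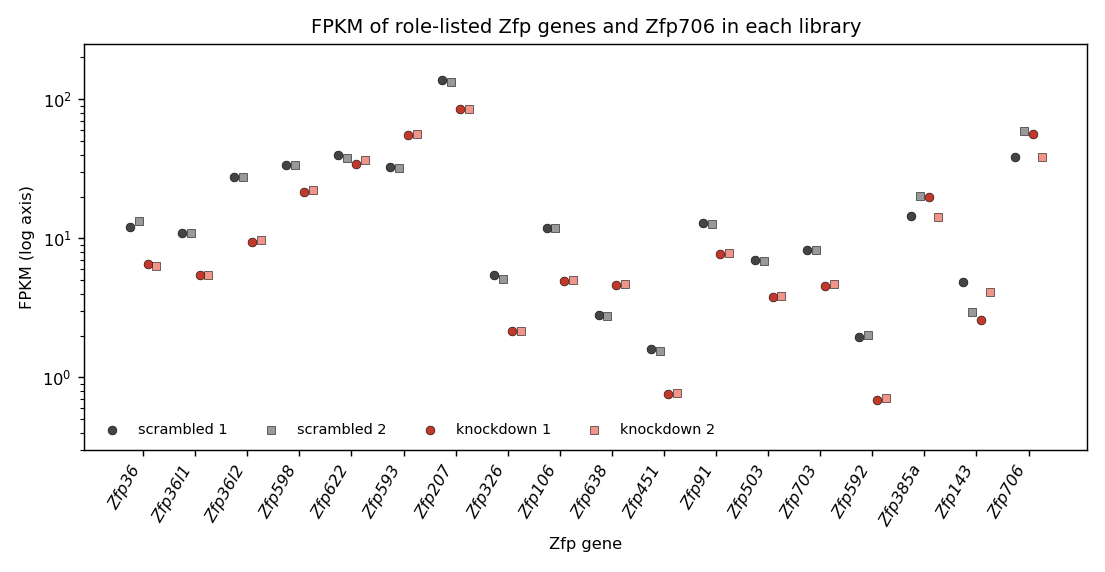
Points give the FPKM of 17 Zfp genes of the role lists and of Zfp706 in each of the 4 libraries, on a log axis, grey for the libraries labelled scrambled and red for those labelled knockdown. In most genes the pair of one colour stands together, and in Zfp385a and Zfp706 the circle of one colour stands level with the square of the other.

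General promoter and stem cell factors differed in direction. Of 7 members among 10 listed, 4 fell (57.1%, against 41.2% of all tested genes), 2 rose (28.6%, against 27.4%) and 1 did not pass. Zfp410, which controls the gene of the chromatin remodeler Chd4, fell from 8.66 and 8.56 to 5.31 and 5.41 FPKM, and Chd4 itself went from 10.1 and 9.84 to 3.78 and 3.84. Zfp335 fell 1.70-fold, Zfp148 1.32-fold and Zfp131 1.12-fold. Zfp148 did not pass after median-centring (log2 -0.08, adjusted p = 0.13) and rose by 0.23 (adjusted p = 0.001) with the length trend taken out. Zfp131 missed the threshold in the fit blocked by batch (adjusted p = 0.063) and without scrambled 1 or scrambled 2 (0.08 and 0.067), and its sign turned after median-centring (log2 0.03). Zfp281, a relative of Zfp148 that binds G-rich DNA, had 1.28 FPKM in both scrambled libraries and rose to 1.98 and 2.01, and Zfp219 rose 1.35-fold.

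Of 9 listed genes of imprint and retroelement control, 4 were members, with means of 1.05 to 1.85 FPKM. Zfp568, which silences the placental Igf2 transcript, fell from 1.45 and 1.45 to 0.796 and 0.818, Zfp961 fell 1.85-fold and Zfp932 rose from 0.627 and 0.613 to 1.5 and 1.46 FPKM. Zfp568 passed the filter on low values only through the scrambled libraries, and Zfp932 only through the knockdown libraries. With the length trend taken out, the change of Zfp568 was 8e-05 on the log2 scale (adjusted p = 1). Zfp57, which keeps methylation on imprinted genes, did not pass at 1.14 and 1.24 FPKM against 1.22 and 1.14, and its groups overlapped. After median-centring it passed as higher (log2 0.17, adjusted p = 0.019). Zfp809, which silences murine leukaemia proviruses and was under the filter, was crossed at 0.62 and 1.26 FPKM against 1.27 and 0.608. Of 16 tested corepressor partners of KRAB proteins, 10 (62.5%, against 41.2% of all tested genes) fell, 0 rose and 6 did not pass, with a median log2 change of -0.49. With the length trend taken out, 1 rose and 10 fell, with a median of -0.24. The histone methylase Setdb1 fell 1.91-fold, the heterochromatin protein Cbx5 2.12-fold and Pphln1, of the HUSH silencing complex, 2.09-fold. Trim28 and Chd3 are named here after their values were seen. Trim28 fell from 128 and 127 to 90.9 and 92.6 FPKM. Chd3 fell from 13.6 and 13.5 to 3.88 and 3.97 FPKM, 3.45-fold, the largest fall among the 16 tested partners.

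Fat cell regulators with Zfp names were mostly at low level. Of 7 listed, Zfp638 alone was a member. Zfp423, a determinant of preadipocytes, was listed at 0 in both scrambled libraries and at 0.01 and 0.00365 FPKM in knockdown 1 and 2. Zfp521, its paralog, was at 0.0903 and 0.0943 against 0.0648 and 0.0642 FPKM, and Zfp467 at 0.243 and 0.226 against 0.574 and 0.534.

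Zfp575 (Entrez 101544), with the largest rise, went from 1.18 and 1.15 FPKM to 4.25 and 4.04, or 1.17 ± 0.0242 (SD, n = 2) against 4.15 ± 0.15 (SD, n = 2), 3.55-fold (log2 1.25, SE 0.03, limma adjusted p = 1.6e-04), from 78 and 92 fragments to 343 and 299. Zfp931 (Entrez 353208) rose from 0.725 and 0.707 FPKM to 2.70 and 2.56, 3.67-fold, and Zfp958 from 0.785 and 0.783 to 2.50 and 2.52, 3.20-fold. In all 3 the groups lay far apart, and Zfp931 and Zfp958 passed the filter on low values only through the knockdown libraries. Zfp984 and Zfp52 rose 2.77-fold and 2.80-fold, Zfp775 2.54-fold, Zfp938 2.37-fold and Zfp688 2.11-fold. Zfp444, a SCAN-domain protein, rose from 8.89 and 8.78 to 16.3 and 16.4 FPKM, and the abundant Zfp771 from 26.0 and 25.3 to 44.8 and 44.4. Duplicated Zfp genes can share reads, and the treatment of reads that match several genes is not known here, so values of close relatives are uncertain. Zfp931 and Zfp775, for which RefSeq lists a promoter, both hold CCAAT boxes, with 3 in Zfp775.
Zfp931, chr2:178078426-178078675, minus strand: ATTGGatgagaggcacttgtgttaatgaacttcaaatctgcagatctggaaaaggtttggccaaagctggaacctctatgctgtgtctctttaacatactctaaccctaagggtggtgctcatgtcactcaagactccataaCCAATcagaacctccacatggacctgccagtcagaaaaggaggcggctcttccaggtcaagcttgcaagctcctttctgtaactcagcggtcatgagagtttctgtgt
Zfp775, chr6:48601757-48602006, plus strand: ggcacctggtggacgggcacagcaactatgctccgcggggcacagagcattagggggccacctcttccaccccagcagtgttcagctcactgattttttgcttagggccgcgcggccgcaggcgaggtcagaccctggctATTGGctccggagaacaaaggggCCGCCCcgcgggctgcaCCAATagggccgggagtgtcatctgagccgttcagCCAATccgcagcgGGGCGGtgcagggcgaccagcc

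Besides the genes above, 3 of the 10 largest falls were in C2H2 genes. Zfp146, made almost wholly of fingers, fell from 10.9 and 10.4 to 5.47 and 5.46 FPKM (log2 -0.84, SE 0.03). Zfp251 fell from 13.6 and 13.5 to 7.23 and 7.38, and Zfp512b from 3.30 and 3.34 to 1.53 and 1.57. In each the groups did not overlap.

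Longer transcripts had lower changes, in the members as in the whole table. Using the longest GENCODE M21 transcript of each gene, Spearman's rho of length and log2 change was -0.33 over the 156 members and -0.40 over 8456 tested genes, as a description across genes of the same 4 libraries. Among the 52 members of up to 2837 bases, 30 rose and 11 fell. Among the 52 above 4220 bases, 10 rose and 27 fell. Of all tested genes in the same length ranges, 39.8% of the short ones rose and 25.5% fell, while 12.1% of the long ones rose and 63.4% fell, against 57.7% and 21.2% of the short members and 19.2% and 51.9% of the long ones. With the trend over length taken out, 72 members rose and 40 fell, of which 98 were called in the same direction as before and 5 in the opposite one.

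**Figure D4:**
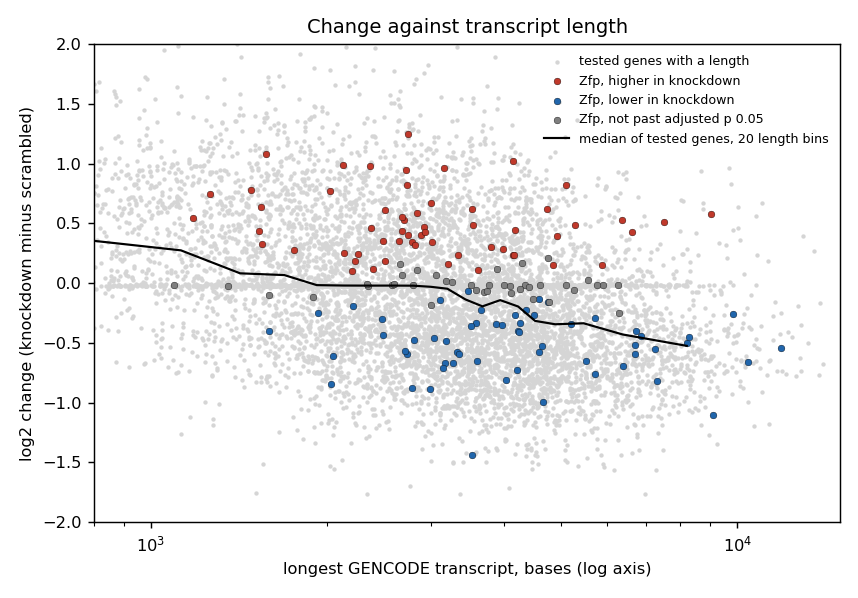
Each point is a gene, with the length of its longest GENCODE transcript in bases on a log x axis and its log2 change on the y axis, coloured points being Zfp genes and grey points tested genes. The line, the median of tested genes in 20 bins of equal size, falls with length, as does the share of red points, and the y axis ends at 2 and -2.

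Counts were also made by level and by place. At a mean of 1 to 2 FPKM 19 of 49 members rose (38.8%, against 27.7% of all tested genes of that level) and 14 fell (28.6%, against 39.9%). From 2 to 5 FPKM 24 of 57 rose (42.1%, against 23.5%) and 21 fell (36.8%, against 45.1%). From 5 to 10 FPKM 3 of 24 rose (12.5%, against 21.2%) and 17 fell (70.8%, against 47.4%). At 10 FPKM or more 12 of 26 rose (46.2%, against 31.3%) and 6 fell (23.1%, against 37.8%). Runs of 4 or more members with at most 10 places between neighbours in the order of protein-coding genes (RefSeq, GRCm38.p6) held 38 members, of which 22 rose (57.9%), 4 fell and 12 did not pass. Of all tested genes 27.4% rose, and of those of up to 2837 bases 39.8%. Outside them 36 of 118 rose and 54 fell. In the runs, 16 rose and 6 fell with a common FPKM sum and 26 rose and 2 fell with the length trend taken out, which gave 46 higher and 38 lower members outside. Median transcript lengths were 2879 bases in the runs and 3827 outside.

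The largest run, on chromosome 17 from Zfp160 to Zfp13, held 12 members, of which 8 rose (66.7%, against 27.4% of all tested genes), 0 fell and 4 did not pass. Its changes reached 0.97 in Zfp52, with Zfp943, Zfp944, Zfp945 and Zfp946 at 0.40, 0.35, 0.43 and 0.43 on the log2 scale, while Zfp51 and Zfp942 in the same run were crossed. On chromosome 7 all 6 members of the run from Zfp553 to Zfp689 rose, by 0.11 to 0.82 (3 of 6 with a common FPKM sum, 5 of 6 with batch as a replicate block, with any 1 library left out or with SEs not below counting error), and Zfp579, Zfp524 and Zfp865 rose in the run from Zfp628 to Zfp580, whose ends were crossed. The run from Zfp553 to Zfp689 had a median transcript length of 2708 bases, and 39.8% of all tested genes of up to 2837 bases rose. From Zfp180 to Zfp575, also on chromosome 7, 2 rose and 1 fell. From Zfp30 to Zfp146 on chromosome 7, 1 rose and 2 fell, and from Zfp282 to Zfp775 on chromosome 6, 2 rose and 1 fell. Of all tested genes 27.4% rose and 41.2% fell. With the replicate block the run from Zfp30 had 0 higher and 2 lower, and that from Zfp282 2 higher and 0 lower. The members of these runs outside the naming rule are given as parts of the runs, which were described after their values were seen.

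**Figure D5:**
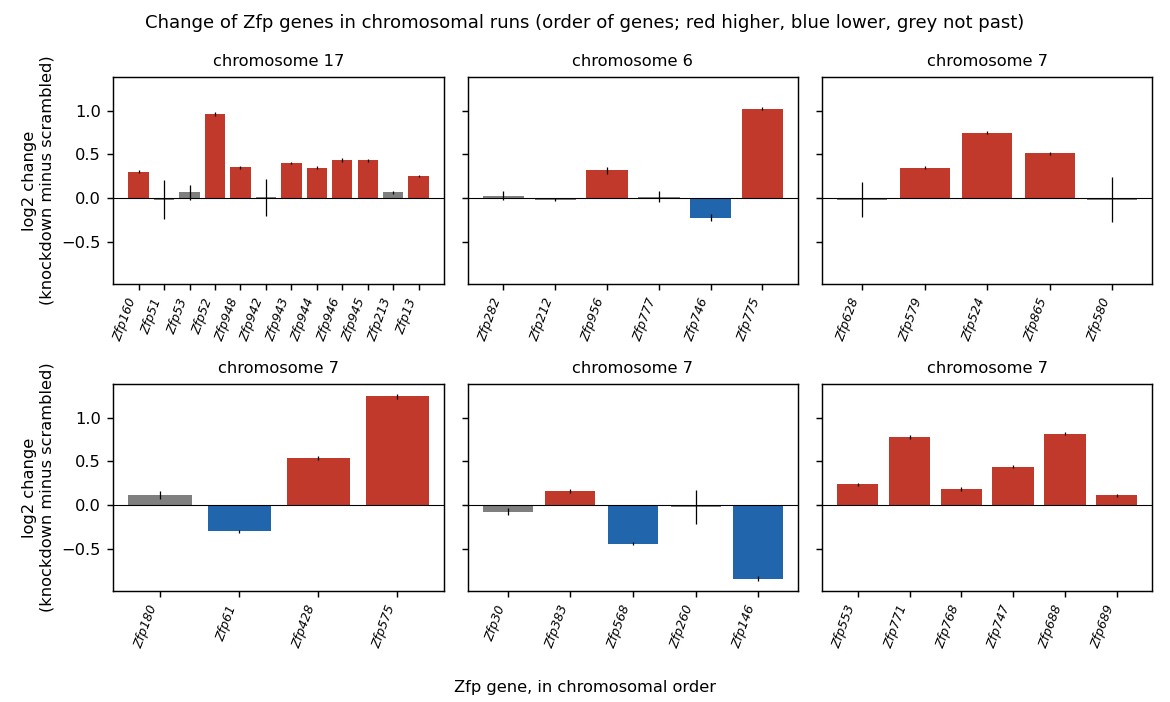
Bars give the log2 change of each member in 6 chromosomal runs, in the order of the genes, with the limma standard error. The run on chromosome 17 and, on chromosome 7, those from Zfp628 to Zfp580 and from Zfp553 to Zfp689 hold no gene that fell, and that from Zfp30 to Zfp146 holds 1 that rose, a call lost with the replicate block, and 2 that fell.

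Promoter motifs were counted in the members and in all genes of RefSeq's table. This table held 129 of the 156 members, and the 250 bases before the first listed start were searched on both strands. The genes of the table, unlike the members, were not chosen by expression, and the part of this in the shares was not tested. The CCAAT box was found in 54.9% of 51 higher members, 45.2% of 42 lower members and 34.5% of all 27025 genes of the table. The GC box was in 52.9%, 52.4% and 32.9%, and the TATA box in 5.88%, 11.9% and 13.0%. The ETS site, which can overlap the end of a GC box as it does in Zfp598, was in 35.3%, 28.6% and 20% of these. The interferon response element was in 0 of 51 higher and 1 of 42 lower members, against 3.04% of all genes. The cAMP response element was in 3.1% of the members (0 higher, 1 lower and 3 that did not pass), against 1.62% of all genes. The NRF1 site was also searched and was in 3.1% of the members (1 higher, 2 lower and 1 that did not pass), against 0.781%. The members' promoters were also richer in G and C, with a median of 56.4% against 52.0%, and the part of this in the share of GC boxes was not tested. A match is a description of letters and not a site in use.

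The line at 1 FPKM passes through a dense range of values. Just inside were Zfp30, Zfp46, Zfp322a and Zfp53, with means of 1.012, 1.014, 1.015 and 1.028 FPKM. Just outside were Zfp81, Zfp867, Zfp449 and Zfp609, with 0.9999, 0.9922, 0.9586 and 0.9502. Of the members, 10 had a scrambled mean and 8 a knockdown mean under 1, and of these 9 rose and 7 fell, a direction that the rule itself favours. Of the 207 protein-coding Zfp genes outside, 136 had a mean under 0.5 and 60 under 0.1 FPKM.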

How the data were processed

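Polysome RNA of 4 libraries, 2 per group, was used. Per the labels' protocols, Trizol was used for extraction and beads for capture of mRNA. The deposited values are FPKM computed by the authors. Per the submitters' processing notes the builds were GRCm38, mm10 and GRCm39, with no role given. Aligner, counter, annotation and strandedness: not given in the sources used here. All 4 value columns were used and 0 left out.

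FPKM were tested as log2(FPKM + 1) with limma 3.58.1 in R 4.3.3 (eBayes with trend, no batch term) over 8750 genes with a mean of at least 1 FPKM, two-sided, with Benjamini-Hochberg adjustment and a threshold of 0.05. Changes on this scale understate those of low genes. Each gene's test had 3.06 degrees of freedom, and no adjusted p was under 1.6e-04. Whole fragments were recovered from the ratios of low values for 15872 genes and all 156 members, apart from a common divisor (204 or more per member over the 4 libraries, median 1930). They cover counting error only. In tests on simulated data, 587 of 587 genes were recovered, and limma found 197 of 200 changed genes with 14 false calls among 8693 genes for this comparison. The counts simulated for limma were drawn independently for each library and held no crossed pattern, while 27.2% of all tested genes here were crossed. The simulation therefore cannot give the rate of false calls in these data. The limma SE was below the counting SE in 118 members (medians 0.0185 and 0.0459), so SEs and p-values can understate even counting error.

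The replicate number and the labelled batch coincide, so replicates are paired by the labels' batch. Across 8750 genes the differences between replicates in both groups had r = -0.83, and the cause of this was not tested. Members, lists and tests were chosen with earlier results of these data known. Genes named are Ifit1, members on the role lists, and the 10 largest rises and 10 largest falls among called members whose batches have equal sign. Also named are the 5 highest levels, 4 genes on each side of 1 FPKM, and 4 genes of smallest adjusted p of each partner or target list. Adjusted p was tied in many of these partners, and the choice among tied genes did not follow the size of p. Classes planned from protein sequences were not made, and the deposited family annotation was used. Alternatives were another pseudocount, no filter, 3 scalings, batch as a block, no variance trend, removal of a lowess trend over transcript length (span 0.3) and leaving out each library. Tables were made with pandas 2.3.3 and numpy 2.4.6 in Python 3.11.15, and figures with matplotlib 3.10.9.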

Additional observations from a re-analysis of the deposited data

How the results depend on the processing

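The counts of higher and lower members stayed within 1.5 times of 58 and 58 under all alternatives. They were 54 to 56 higher and 52 to 55 lower with 1 library left out, where a lone library is assumed to vary like the other group. With batch as a replicate block, 54 rose and 53 fell, and Zfp131 was the only gene under the naming rule to lose its call. With the pairing crossed, which was added after seeing the data, 65 rose and 70 fell. With SEs not below counting error, also added then, 50 rose and 53 fell, and Zfp322a missed (adjusted p = 0.086), as it did with a common sum (0.27) and without scrambled 2 (0.061). The members' median log2 change of -0.02 moved to 0.16 after median-centring, 0.07 after quantile normalization, -0.16 with a common FPKM sum and 0.17 with the length trend removed. Left-out libraries gave medians of -0.02 to 0.00. Quantile normalization gave 64 higher and 50 lower.

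Signs turned in these named genes, of which Zfp131, Zfp568, Zfp148 and Zfp687 had passed. After median-centring, the log2 changes were 0.04 in Zfp622, 0.15 in Zfp385a, 0.17 in Zfp57, 0.03 in Zfp131, 0.16 in Zfp644, 0.12 in Zfp330, 0.14 in Zfp706 and 0.10 in Zfp30. After quantile normalization they were 0.10 in Zfp385a, 0.05 in Zfp57, 0.03 in Zfp131, 0.06 in Zfp644, 0.0007 in Zfp330 and 0.01 in Zfp706. With a common sum Zfp53 was at -0.03, and Zfp330 and Zfp30 passed as lower (adjusted p = 0.039 and 0.046). With the length trend removed they were 0.16 in Zfp622, 0.01 in Zfp385a, 0.05 in Zfp57, 8e-05 in Zfp568, 0.23 in Zfp148, 0.01 in Zfp687, 0.40 in Zfp644, 0.15 in Zfp330, 0.25 in Zfp706 and 0.14 in Zfp30. Leaving out 1 library turned the sign in crossed genes, with ranges of -0.46 to 0.10 in Zfp143, -0.11 to 0.08 in Zfp644, -0.25 to 0.21 in Zfp385a, -0.34 to 0.28 in Zfp706 and -0.01 to 0.14 in Zfp53. The sign also turned in Zfp57 (-0.04 to 0.03), whose crossed difference of 0.063 was under 0.1. Beyond the change of scale or the fewer samples, the cause was not tested. Members of few fragments are limited by counting error, which the SEs can understate.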
